A study of Mus musculus with 145 samples.

Results

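The step between 1 h and 5 h of T cell activation was described in mouse CD4 and CD8 T cells, in 8 arrays of a series of 145. The members were chosen by sample title. They were the groups CD4.1h.LN, CD4.5h.LN, CD8.1h.LN and CD8.5h.LN, with 2 arrays in each. The series is a compendium of gene expression in mouse immune cells, measured from total RNA on Affymetrix arrays with 1 intensity for each of 24922 probe sets. All 8 samples came from the lymph node of male C57BL/6 mice at 6 weeks of age. Per the labels, CD4 samples were CD4+ CD8- TCR+ CD25- CD62Lhi CD44 Lo and CD8 samples were CD8+ CD4- with the same other markers, a phenotype of naive T cells. Cells carrying CD11c, CD25, CD49b, Gr1 or Ter119 were among those excluded. The cells were then cultured with beads that carry antibodies to CD3, the signalling part of the T cell receptor, and to CD28, its main costimulatory receptor. Such beads stimulate T cells whatever their antigen, without an antigen-presenting cell. Neighbouring times are given for orientation: a control group (CTR, 2 arrays per cell type, with no time in its title), 24 h and 48 h. The labels of the control carry the same bead treatment as the timed samples and do not say how it was handled, so a level at, above or below the control is relative to samples of unstated handling. The labels do not say whether the 2 arrays of a group came from separate mice or cultures, so the spread behind each p-value is that between arrays, which may be technical.

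A naive T cell is a small resting cell. Signals from the T cell receptor and CD28 first switch on transcription factors that need no new protein, such as those of the Fos, Egr and Nr4a families. Over the following hours these give way to cytokines and their receptors, and the cell builds ribosomes, nucleotides, membranes and amino acid transporters before it first divides. CD4 T cells are known for helping other cells, in part through interleukin 2, and CD8 T cells for killing infected cells and for making chemokines such as Xcl1, Ccl3 and Ccl4.

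Summed lineage markers matched the labels. Summed over 4 CD4 lineage markers (Cd4, Zbtb7b, Cd40lg and Izumo1r) the intensity was between 4437 and 5328 in CD4 samples and between 448 and 535 in CD8 samples. Cd4 and Cd40lg carried this gap. Zbtb7b overlapped (lowest CD4 array 134, highest CD8 array 153.2), and Izumo1r separated narrowly (293.5 and 285.9). The summed CD8 lineage markers (Cd8a, Cd8b1, Runx3 and Itgae) were between 8467 and 9712 in CD8 samples and between 855 and 1177 in CD4 samples. Median array intensities lay between 117.1 and 125.5. Neutrophil markers, which these cells should lack, gave intensities from 19.5 to 87.7, and levels in that range are taken here as background. A pair of arrays stood apart. CD4 1 h replicate 2 was at least 2-fold above replicate 1 at 518 probe sets, and its correlation with replicate 1 was 0.9761, where the other 3 pairs reached 0.9914 to 0.9933. Of the 149 probe sets at which it was higher by over 2.5 on the log2 scale, 12 had a single gene symbol, 11 of them members of the repeated Srsy family, and 13 of the 62 that were tested were called lower in the CD4 step. CD4 5 h replicate 2 held more signal of other cell types: the macrophage gene Lyz2 was at 429.1 there and 46.8 in replicate 1, the 8 B cell markers summed to 1124 against 472, the 6 macrophage and monocyte markers to 766 against 357, and the red cell genes Alas2 and Slc4a1 to 604 against 202. In the other 6 arrays these sums were 524 to 569, 329 to 393 and 192 to 225. The macrophage and monocyte sum rests mainly on Lyz2. Of its other members Csf1r was higher in replicate 2 than in replicate 1 (105.8 against 75.3), and Cd14 (47.3 against 68.5) and Fcgr1 (71.1 against 77.6) were lower. Adgre1 and Mertk lay within the background range in both. The part of CD4 1 h replicate 2 and CD4 5 h replicate 2 in the results was not tested, and counts without them are given for many of the lists.

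Between 1 h and 5 h large rises were of the interleukin 2 system, of receptors of activated T cells and of the transcription factor Irf4, and large falls were of the naive cell gene Igfbp4 and of genes that had been high at 1 h. With limma over the 22 stimulated and control T cell arrays and Benjamini-Hochberg adjustment over 14411 probe sets, 5079 probe sets (35.2%) were called in CD4 cells at an adjusted p under 0.05. Of these 3541 (24.6% of those tested) were higher at 5 h and 1538 (10.7%) were lower. In CD8 cells 3924 (27.2%) were called, 2465 (17.1%) higher and 1459 (10.1%) lower. A change of at least 2-fold was called at 1431 probe sets (9.93%) in CD4 cells, 1109 higher and 322 lower, and at 988 (6.86%) in CD8 cells, 673 higher and 315 lower. The split depended on the scaling. Higher calls made up 69.7% of calls in CD4 cells and 62.8% in CD8 cells as deposited, and 52.1% in each after quantile normalization (2815 higher and 2584 lower in CD4, 2070 and 1906 in CD8). The median change over all probe sets moved by less than 0.1 on the log2 scale, from 0.0488 to -0.0366 in CD4 cells and from 0.0123 to -0.0411 in CD8 cells. Without CD4 1 h replicate 2 the CD4 count was 3367, without CD4 5 h replicate 2 it was 3444, and without both it was 2363. For comparison, the first hour gave 2903 calls (20.1%) in CD4 cells and 2089 (14.5%) in CD8 cells. The time from 5 h to 24 h gave 4801 (33.3%) and 3653 (25.3%), and 5 h against the control gave 4495 (31.2%) and 4163 (28.9%). These comparisons share arrays with the step. In such bulk RNA, fewer cells with a transcript and less of it per cell cannot be told apart.

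The CD4 and CD8 steps, which share no array, moved mostly the same genes. In both, 3201 probe sets were called, 3197 of them in the same direction (2223 higher and 974 lower), which is 62.9% of the CD4 calls and 81.5% of the CD8 calls. Across the 14411 probe sets the log2 changes of the 2 cell types correlated with r = 0.855, given as a description because genes are not independent. The 4 called in opposite directions were Slc16a6, Cers6, Plaur and Neto2, of which Slc16a6 is named here after its values were seen. The CD4 calls of Cers6, Plaur and Neto2 were each lost without CD4 1 h replicate 2 (adjusted p = 0.13, 0.26 and 0.09) and without CD4 5 h replicate 1 (adjusted p = 0.099, 0.052 and 0.081), and those of Cers6 and Plaur also without CD4 5 h replicate 2 (adjusted p = 0.072 and 0.3). At 68.9% of all tested probe sets in CD4 cells and 61.5% in CD8 cells the 5 h arrays did not overlap the 1 h arrays, so a gap between pairs of arrays is common in these data.

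Il2, which encodes interleukin 2, the growth factor of activated T cells, had the largest rise of CD4 cells. Its CD4 intensity was 45.2 and 48.3 at 1 h, within the background range, and 1273 and 2207 at 5 h. In CD8 cells it went from 46.6 and 46.7 to 162.8 and 348.4. Every 5 h array lay above every 1 h array, and the CD4 5 h arrays lay above the CD8 5 h arrays. The change was 5.17 ± 0.38 on the log2 scale in CD4 cells (SE, n = 2 arrays per time, adjusted p = 6.4e-08), 35.9-fold, and 2.35 ± 0.38 in CD8 cells (adjusted p = 2e-04), 5.11-fold. Since the 1 h level was at background, the size of these folds is limited by the floor of the array. Il2ra, the alpha chain that gives the receptor its high affinity, rose in both cell types alike. It was at 212.9 and 219.3 in CD4 cells at 1 h and at 4810 and 5737 at 5 h. In CD8 cells the values were 134.8 and 176.4, then 3990 and 5658. The changes were 4.60 ± 0.21 (adjusted p = 6.9e-10) and 4.95 ± 0.21 (adjusted p = 4.5e-10), and their difference did not pass the test (adjusted p = 0.81). The protein of Il2ra is CD25, the marker absent from the cells at the start. The other regulatory T cell markers Foxp3, Ikzf2 and Nrp1 stayed between 61.9 and 274.1 in the 8 arrays. Il2rb, the shared beta chain of the interleukin 2 and 15 receptors, rose in CD4 cells from 226.6 and 193.8 to 625 and 687.8. It was already at 2467 and 2785 in CD8 cells at 1 h and at 1828 and 2321 at 5 h, so that the pairs of CD8 arrays did not overlap but their change of -0.35 ± 0.18 was not called (adjusted p = 0.18).

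**Figure D1:**
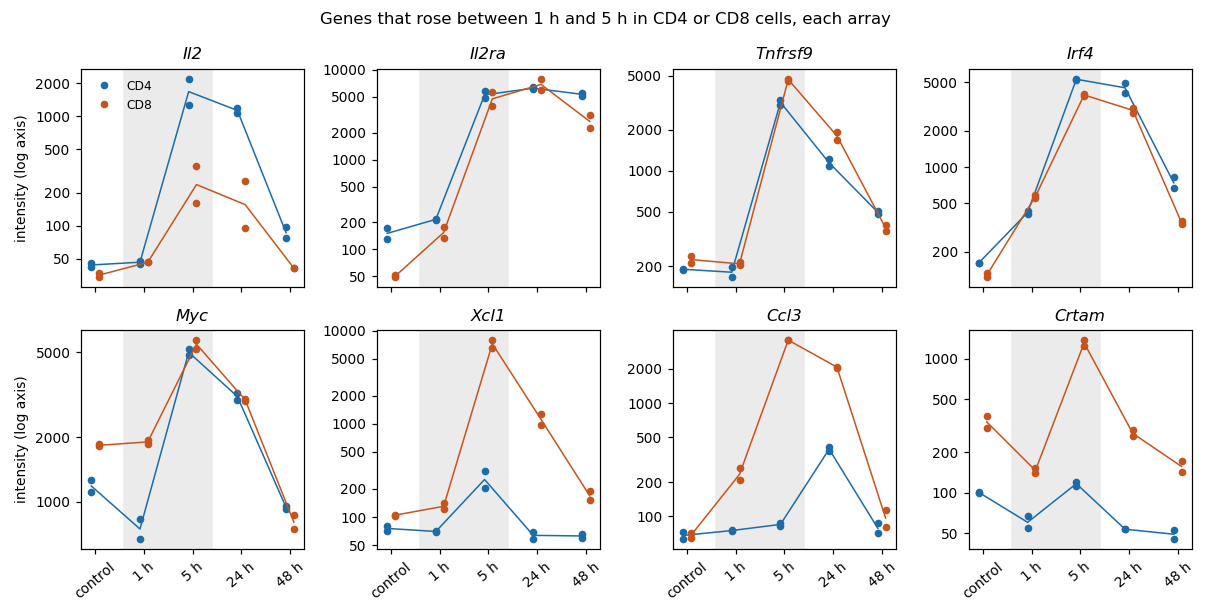
Intensity on a log axis of 8 genes in the control and at 1, 5, 24 and 48 h. Points are arrays (CD4 blue, CD8 orange, 2 per group), lines join the means of log2 values and the grey band marks the step from 1 h to 5 h. Il2 reached 1273 and 2207 in CD4 cells and Xcl1 6560 and 7956 in CD8 cells at 5 h.

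Among 20 tested cytokine and chemokine genes, of 27 listed, 10 rose in CD4 cells and 11 in CD8 cells, with none called lower in either (limma, with 1 lower in CD4 cells and 0 in CD8 cells at an unadjusted p under 0.05). The list's median change was 0.66 in CD4 and 0.65 in CD8 cells, beside medians of 0.05 and 0.01 over all probe sets. A gene was tested if any group of the fit was bright enough. Members within background at 1 h, such as Il2 in both cell types and Ccl3 in CD4 cells, could therefore hardly be called lower. The lack of falls is in part set by this filter. Xcl1, which encodes a chemokine that attracts cross-presenting dendritic cells, was the largest rise in CD8 cells. Its intensity was 120.6 and 141.1 at 1 h and 6560 and 7956 at 5 h, a change of 5.79 ± 0.19 (adjusted p = 2.5e-11) or 55.4-fold. In CD4 cells it was at 68.9 and 71.1, then 205.3 and 311.3, a change of 1.85 ± 0.19 (adjusted p = 2e-06). Both pairs separated, and every CD8 5 h array was far above the CD4 ones. Tnfsf8, the ligand of CD30, had fallen in the first hour by 1.53 in CD4 cells and by 1.08 in CD8 cells. It rose in the step by 2.01 ± 0.26 in CD4 cells (126.5 and 148.7 to 562.1 and 544.2, adjusted p = 2e-05) and by 1.62 ± 0.26 in CD8 cells (163.1 and 268.5 to 736 and 565.1, adjusted p = 0.00021). Ifng, which encodes interferon gamma and is named here after its values were seen, gave 101.1 and 108.8, then 84.7 and 84.6, in CD4 cells. Its CD8 arrays gave 109.6 and 104.4, then 136.2 and 176.9, so that its 5 h arrays were lower in CD4 cells and higher in CD8 cells than those at 1 h. The CD4 fall of Ifng was not called and ended within the background range, and its steps were not called as different between the cell types.

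Receptors divided by kind. Of 24 tested costimulatory, checkpoint and activation receptors, 16 rose and 5 fell in CD4 cells, and 15 rose and 3 fell in CD8 cells, with medians of 0.68 and 0.66. Without CD4 1 h replicate 2 the CD4 counts were 14 and 3, and without both arrays that stood apart 9 and 3. Tnfrsf9, which encodes the costimulatory receptor 4-1BB, was at 196.9 and 164.9 at 1 h in CD4 arrays and 213 and 202.3 in CD8 arrays. At 5 h the CD4 arrays gave 3332 and 3066 and the CD8 arrays 4620 and 4778, with no overlap. The rises were 17.7-fold (adjusted p = 1.2e-11) and 22.6-fold (adjusted p = 3.6e-12), with an SE of 0.12 on the log2 scale for each. By 48 h the group means had returned to 496 and 382. Tfrc, the transferrin receptor by which dividing cells take up iron, rose by 3.32 ± 0.19 in CD4 cells, from 185.1 and 158 to 1704 and 1707, and by 2.56 ± 0.19 in CD8 cells, from 214 and 240.8 to 1659 and 1078. Slamf1, a self-binding adhesion receptor, rose by 2.57 ± 0.21 and 2.04 ± 0.21. The checkpoint receptors Tigit and Ctla4 went the other way. Tigit was at 825.3 and 840.5 in CD4 cells at 1 h and at 279.8 and 320.4 at 5 h, and at 1546 and 1893, then 646.7 and 1019, in CD8 cells. The changes were -1.48 ± 0.20 (adjusted p = 3.6e-05) and -1.08 ± 0.20 (adjusted p = 0.00084). Ctla4, an inhibitory competitor of CD28, fell by 1.20 ± 0.15 on the log2 scale in CD4 cells, from 294.5 and 252.3 to 118.6 and 118.8, the level of the control (group mean 121). At 24 h its mean was 1693 in CD4 and 1124 in CD8 cells, so that the 5 h samples lie in a trough between 2 high levels.

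Of 19 tested cytokine receptors, 9 fell in each cell type, while 4 rose in CD4 cells and 3 in CD8 cells, with medians of -0.35 and -0.46. Il2ra and Il15ra, the alpha chain that presents interleukin 15, were among those that rose. Il15ra rose by 1.40 ± 0.15 in CD4 cells and 1.30 ± 0.15 in CD8 cells. Ifngr2, the signalling chain of the interferon gamma receptor, fell from 5924 and 4773 to 1390 and 1397 in CD4 cells and from 4381 and 4482 to 1010 and 922 in CD8 cells. The 5 h arrays were thus close to the control means of 1572 and 1321, and the changes were -1.93 ± 0.13 (adjusted p = 2.5e-08) and -2.20 ± 0.13 (adjusted p = 9.7e-09). Il12rb2, the inducible chain of the interleukin 12 receptor, fell by 1.65 ± 0.21 and by 1.75 ± 0.21 to intensities of 58.6 to 107.7. It stood at group means of 281 in CD4 cells and 873 in CD8 cells at 24 h.

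Many early transcription factors fell back between 1 h and 5 h, while Irf4, Irf8 and Myc rose. Of 19 tested immediate early factors 8 fell and 3 rose in CD4 cells, and 12 fell and 1 rose in CD8 cells, with medians of -0.48 and -0.59. The CD4 count of falls rests in part on CD4 1 h replicate 2: without it 4 fell and 2 rose, whereas quantile normalization gave 11 and 3. Fos, a subunit of the AP-1 factor, was at 509.1 and 466.9 in CD4 cells at 1 h and at 223 and 259.6 at 5 h. In CD8 cells it was at 559.6 and 620.9, then 201.6 and 212.9. All 5 h arrays lay below all 1 h arrays, with changes of -1.02 ± 0.15 (adjusted p = 5.9e-05) and -1.51 ± 0.15 (adjusted p = 2e-06). Since Fos had a mean of 863 in the CD4 control, above its 1 h level, these samples hold no peak of it at 1 h. Fosl1, another AP-1 subunit, rose by 1.41 ± 0.26 (125.5 and 118.8 to 270.3 and 387.4) in CD4 cells and by 1.91 ± 0.26 (172.6 and 155.4 to 438.9 and 863.8) in CD8 cells. Its CD4 call was lost only when both arrays that stood apart were left out (1.11, adjusted p = 0.052). Nr4a1, a nuclear receptor often used as a reporter of receptor signalling, stayed high. It was at 6862 and 5820 in CD4 cells at 1 h and at 9589 and 8885 at 5 h. In CD8 cells the values were 7565 and 7375, then 7571 and 7647. The CD8 pairs were nearly level (0.03 ± 0.13, adjusted p = 0.92), and the CD4 rise of 0.55 ± 0.13 (adjusted p = 0.0043) was lost without CD4 1 h replicate 2 (0.43, adjusted p = 0.063) and in the fit of all arrays of the series (adjusted p = 0.36).

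Of 26 tested activation transcription factors 10 rose and 5 fell in CD4 cells and 9 rose and 6 fell in CD8 cells. Without both arrays that stood apart the CD4 counts were 6 and 4. Irf4, a factor whose level follows the strength of receptor signals, was at 433.9 and 409.5 in CD4 cells at 1 h, above the control mean of 162, and at 5379 and 5233 at 5 h. In CD8 cells it went from 555.1 and 588.2 to 3989 and 3877. The changes were 3.65 ± 0.13 (adjusted p = 3.6e-11) and 2.78 ± 0.13 (adjusted p = 8.3e-10), and no 5 h array overlapped a 1 h array. Irf8, also a B cell and dendritic cell gene, rose from 129.9 and 129.5 to 877.8 and 944.2 in CD4 cells (2.81 ± 0.13). CD8 arrays gave 149.7 and 155, then 803.7 and 927 (adjusted p = 4e-09), in arrays whose B cell markers summed to 524 and 564 at 5 h. Myc, the regulator of growth and metabolism, was at 827.6 and 669.1 in CD4 cells at 1 h, below the control mean of 1185, and at 1935 and 1867 in CD8 cells. By 5 h the cell types had met, at 5162 and 4817 in CD4 and 5695 and 5193 in CD8 cells. The rise was 2.74 ± 0.13 (adjusted p = 6.9e-10) in CD4 and 1.52 ± 0.13 (adjusted p = 3.5e-07) in CD8 cells, and the difference passed the test (adjusted p = 0.0042). Mxd1, which encodes a partner of Max that opposes Myc, fell from 1107 and 1002 to 248.2 and 277.8 in CD4 cells and from 936.5 and 1113 to 331.7 and 308 in CD8 cells, by 2.00 ± 0.13 and 1.68 ± 0.13 on the log2 scale.

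Feedback inhibitors of signalling moved in both directions: 13 rose and 7 fell of 31 tested in CD4 cells, and 7 rose and 10 fell in CD8 cells, with medians of 0.01 and -0.31. Spry1, an inhibitor of Ras signalling, rose from 172.8 and 168.5 to 2804 and 2243 in CD4 cells and from 218.5 and 210 to 2254 and 1654 in CD8 cells. This was a change of 3.88 ± 0.17 (adjusted p = 5.6e-10) and 3.17 ± 0.17 (adjusted p = 3.3e-09). Cish, a target and inhibitor of STAT5 signalling, rose by 2.12 ± 0.18 and 1.46 ± 0.18, and Rgs16, which shortens signals of G protein coupled receptors, by 2.34 ± 0.19 and 3.04 ± 0.19. Dusp10, a phosphatase of the p38 and JNK kinases, fell instead. At 1 h the CD4 arrays gave 3438 and 2876 and the CD8 arrays 1848 and 1831. At 5 h it was at 495.1 and 523.8, and at 454.1 and 464.6, below the control means of 877 and 856. The changes were -2.63 ± 0.12 (adjusted p = 6.9e-10) and -2.00 ± 0.12 (adjusted p = 1.3e-08). Map2k3, a kinase upstream of p38, rose by 3.10 ± 0.14 in CD4 cells and 2.15 ± 0.14 in CD8 cells.

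Several of the largest falls were of genes that stood far above the control at 1 h. Vps37b, a subunit of the ESCRT-I sorting complex, had a control mean of 435 in CD4 cells, gave 3376 and 3251 at 1 h and 602.9 and 651.4 at 5 h. In CD8 cells the control mean was 455 and the arrays gave 2880 and 2932, then 495.1 and 511.8. It thus peaked at 1 h in both cell types, and its step was -2.40 ± 0.12 (adjusted p = 1.3e-09) and -2.53 ± 0.12 (adjusted p = 1.1e-09). Ramp3, which encodes a partner protein of calcitonin family receptors, went from a CD4 control mean of 116 to 1147 and 855 and then to 222.5 and 222.9, with a step of -2.15 ± 0.17. Rras2, a Ras family GTPase, fell from 3738 and 3337 to 777.5 and 798.5 in CD4 cells, next to the control mean of 759, and in CD8 cells by 1.73 ± 0.16. Tcp11l2, Crybg1 and Fbxo32 followed the same course, with steps of -2.22 ± 0.17, -2.49 ± 0.13 and -2.02 ± 0.14 in CD4 cells and of -2.34 ± 0.17, -2.56 ± 0.13 and -2.36 ± 0.14 in CD8 cells. A second, dimmer probe set of Crybg1 changed by only -0.21 in CD8 cells, so that gene's size is uncertain.

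**Figure D2:**
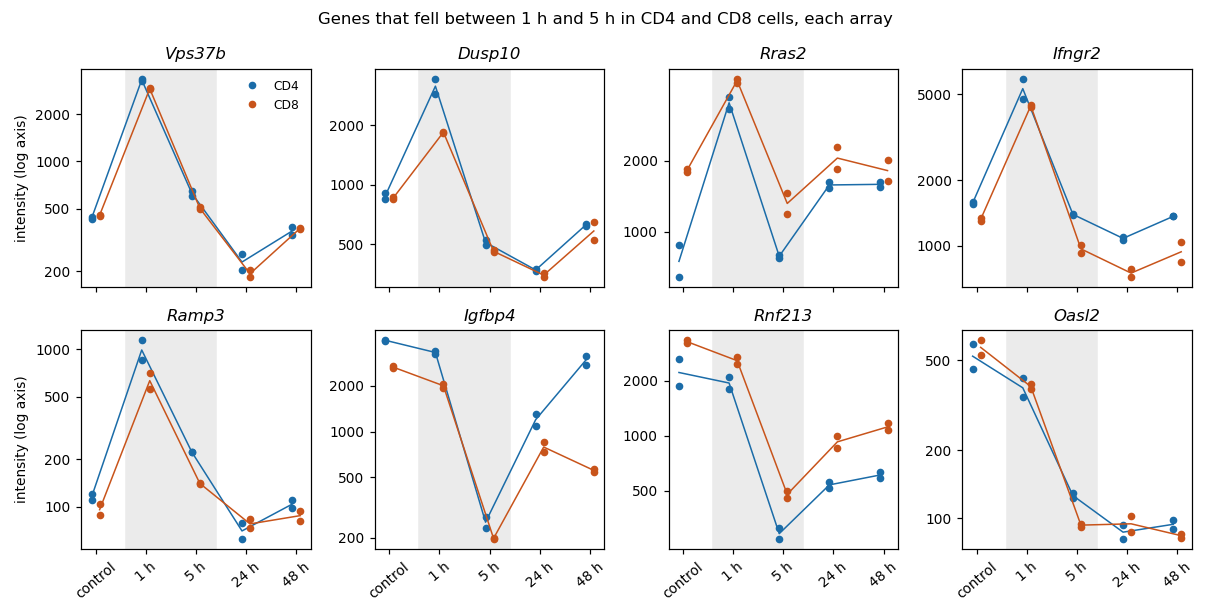
Intensity on a log axis of 8 genes that fell between 1 h and 5 h, in the control and at 1, 5, 24 and 48 h. Points are arrays (CD4 blue, CD8 orange), lines join the means of log2 values and the grey band marks the step. Vps37b, Dusp10, Rras2, Ifngr2 and Ramp3 were above the control at 1 h, whereas Igfbp4, Rnf213 and Oasl2 were at or below it.

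Genes of the naive state made up a different kind of fall. Of 30 tested quiescence and naive state genes 19 fell and 3 rose in CD4 cells and 20 fell and 2 rose in CD8 cells, with medians of -0.63 and -0.69. In CD4 cells 18 fell and 1 rose without CD4 1 h replicate 2, and 16 fell without both arrays that stood apart. Igfbp4, a binding protein of insulin-like growth factors that is abundant in naive T cells, was close to the control (means of 3986 and 2652) at 1 h, with 3399 and 3230 in CD4 and 1945 and 2060 in CD8 cells. At 5 h it was at 233.1 and 275.2 and at 196.6 and 199.5. This was the largest fall in each cell type, -3.71 ± 0.13 (adjusted p = 3.6e-11) and -3.34 ± 0.13 (adjusted p = 1.3e-10), or 13.1-fold and 10.1-fold lower. S1pr1, the receptor by which T cells leave lymph nodes, fell from 5074 and 4160 to 2259 and 2045 in CD4 cells and from 3875 and 3936 to 1837 and 1712 in CD8 cells. Bach2, a repressor of effector programmes, moved the other way, by 1.01 ± 0.17 in CD8 cells (adjusted p = 0.00036). In CD4 cells Bach2 changed by 0.73 ± 0.17 (adjusted p = 0.0037), a call lost without CD4 1 h replicate 2 (0.56, adjusted p = 0.062). Among the Gimap GTPases, which support lymphocyte survival, 5 of 8 fell in each cell type, with Gimap6 at 5470 and 5248, then 2719 and 2625, in CD4 cells.

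Interferon response genes fell together. Of 28 tested, 20 fell in CD4 cells and 22 in CD8 cells with none called higher (limma; 1 and 0 were higher at an unadjusted p under 0.05), and the medians were -0.76 and -1.03. The CD4 count was 19 with CD4 1 h replicate 2 or CD4 5 h replicate 2 left out and 17 without both. Oasl2, a member of the oligoadenylate synthetase family, was at 416.2 and 342.1 at 1 h in CD4 arrays and 373 and 391.7 in CD8 arrays. At 5 h it was at 128.6 and 123.3, and at 94.6 and 91.8, just above the background range. The changes were -1.58 ± 0.14 (adjusted p = 6.5e-07) and -2.04 ± 0.14 (adjusted p = 7.3e-08). Rtp4 fell by 1.65 ± 0.16 and by 1.99 ± 0.16, and Ifih1, a sensor of double-stranded RNA, by 1.57 ± 0.19 and by 1.60 ± 0.19. Rnf213, a very large ubiquitin ligase, went from 2105 and 1789 to 273.4 and 311.8 in CD4 cells and from 2453 and 2694 to 459.9 and 498.3 in CD8 cells, with changes of -2.73 ± 0.15 (adjusted p = 4.7e-09) and -2.42 ± 0.15 (adjusted p = 2.1e-08). Ifit3, an interferon-induced antiviral gene, had a control mean of 943 in CD4 cells, 208.3 and 211.2 in the 1 h arrays and 75.9 and 94.7 in the 5 h arrays. In CD8 cells the control mean was 1107 and the arrays gave 375.9 and 453.3, then 101.2 and 143.6.

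**Figure D3:**
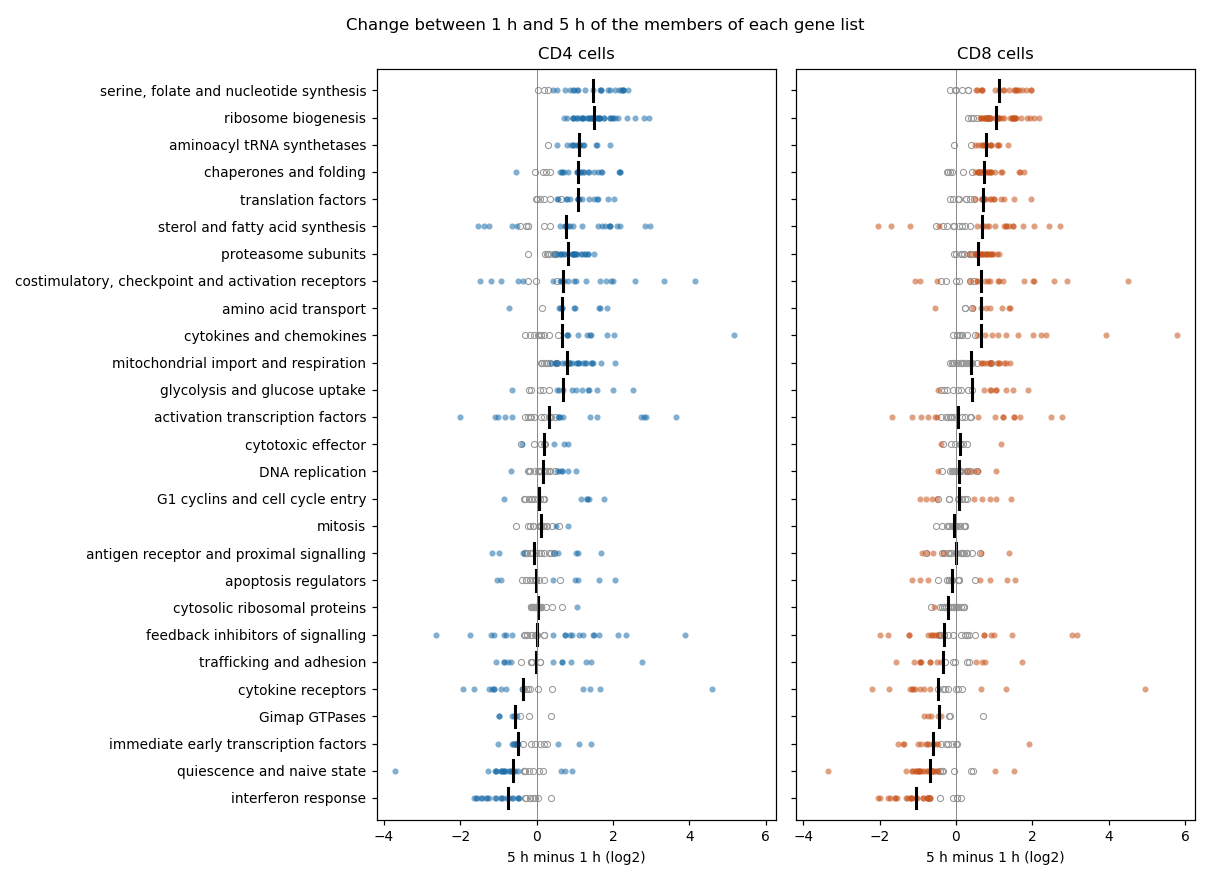
Log2 change from 1 h to 5 h (x axis) of each tested member of 27 gene lists with at least 8 tested members (ordered by the mean of both medians), in CD4 cells (left) and CD8 cells (right). Filled points passed an adjusted p under 0.05, open points did not, and black bars mark list medians, from 1.49 for ribosome biogenesis to -0.76 for the interferon response in CD4 cells.

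The genes that build a growing cell formed the broadest rise. All 40 tested ribosome biogenesis genes rose in CD4 cells and 35 of 40 in CD8 cells, with median changes of 1.49 and 1.04. The CD4 count was 39 with CD4 1 h replicate 2 or CD4 5 h replicate 2 left out and 37 without both. Rrp1b, a nucleolar protein of ribosome assembly, was at 247.9 and 195.3 at 1 h and at 1761 and 1602 at 5 h in CD4 cells. In CD8 cells it was at 272.6 and 313, then 1388 and 1267. The pairs of arrays lay apart in both, with changes of 2.93 ± 0.14 (adjusted p = 1.3e-09) and 2.18 ± 0.14 (adjusted p = 4e-08). Polr1b, a core subunit of RNA polymerase I, rose by 2.82 ± 0.17 and 2.04 ± 0.17, Dkc1, which modifies ribosomal RNA, by 2.58 ± 0.23 and 1.95 ± 0.23, and Nop16 by 2.36 ± 0.11 and 1.85 ± 0.11. The proteins of the ribosome itself behaved differently. Of 27 tested cytosolic ribosomal protein genes 1 was called in each cell type, Rpl12 higher in CD4 cells (1.05 ± 0.19, adjusted p = 0.00056) and Rpl5 lower in CD8 cells (-0.57 ± 0.20, adjusted p = 0.048). The call of Rpl5 was lost without CD8 1 h replicate 1 (adjusted p = 0.17) or 2 (adjusted p = 0.14), without CD8 5 h replicate 2 (-0.23, adjusted p = 0.55) and after quantile normalization (adjusted p = 0.053). The medians were 0.02 and -0.20. Many of these genes have near-identical pseudogenes, so their probe sets may not be specific.

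The rest of the protein-making apparatus rose as well. In CD4 and CD8 cells respectively 17 and 14 of 23 translation factors rose (medians 1.09 and 0.72), and 16 and 15 of 17 aminoacyl tRNA synthetases (medians 1.11 and 0.80). Eif2b3, a subunit of the exchange factor that recharges eIF2, went from 263 and 250.2 to 1123 and 981.1 in CD4 cells and from 325.5 and 312.8 to 1166 and 1334 in CD8 cells. Wars, the tryptophanyl tRNA synthetase, rose by 1.91 ± 0.14 and 1.08 ± 0.14. Of 11 amino acid transport genes 9 and 7 rose and 1 fell in each, and 5 rose in CD4 cells without both arrays that stood apart. The same left 11 tRNA synthetases called in CD4 cells. The glutamine carrier Slc1a5 rose from 1197 and 947.2 to 3932 and 3739 in CD4 cells, and the large neutral amino acid carrier Slc7a5 from 1583 and 1179 to 4727 and 3769. Slc38a2, an adaptive carrier of small neutral amino acids, was the member that fell, by 0.72 ± 0.12 and by 0.55 ± 0.12. Chaperones rose at 22 of 27 genes in CD4 cells, where 1 fell, and 20 in CD8 cells (medians 1.08 and 0.74). Among them Stip1, which links Hsp70 to Hsp90, rose by 2.19 ± 0.12 and 1.67 ± 0.12. The CD4 fall, of Dnajb9, lost its call in the limma fit of all arrays of the series (-0.55, adjusted p = 0.056). Its change was -0.39 without CD4 1 h replicate 2. Proteasome subunits rose at 23 and 20 of 31 (medians 0.82 and 0.59), and 12 did so in CD4 cells without both arrays that stood apart.

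Metabolic genes followed. Of 25 tested genes of serine, folate and nucleotide synthesis 22 were higher in CD4 cells and 19 in CD8 cells, with medians of 1.46 and 1.14. Cad, the enzyme that begins pyrimidine synthesis, went from 320 and 227.1 to 1308 and 1256 in CD4 cells and from 377.6 and 382.6 to 1274 and 1223 in CD8 cells. The changes were 2.25 ± 0.15 (adjusted p = 2.5e-08) and 1.72 ± 0.15 (adjusted p = 5.4e-07). Srm, which makes spermidine, rose by 2.92 ± 0.15 and 2.45 ± 0.15, to between 4425 and 5518. Of 5 tested polyamine genes only Srm and Odc1 were called higher in CD4 cells and only Srm in CD8 cells. Glycolysis genes rose at 11 and 8 of 17 and fell at 1. Pgam1, an enzyme of glycolysis, went from 402.3 and 369.3 to 2048 and 2401 in CD4 cells and from 608.2 and 750 to 2106 and 3023 in CD8 cells. Of 32 mitochondrial import and respiration genes 22 were called higher in CD4 cells and 13 in CD8 cells, or 12 in CD4 cells without both arrays that stood apart.

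Lipid genes divided by function. Of 29 tested sterol and fatty acid genes 18 rose and 5 fell in CD4 cells and 16 rose and 4 fell in CD8 cells. Those with the largest rises make cholesterol. Idi1 went from 121.4 and 125.2 to 1009 and 931.3 in CD4 cells and from 96.8 and 164.2 to 999.4 and 702.5 in CD8 cells. Sqle, which catalyses the first oxygenation of the pathway, rose by 2.83 ± 0.15 (adjusted p = 2.8e-09) and 2.45 ± 0.15 (adjusted p = 1.7e-08), and Cyp51 by 2.11 ± 0.16 and 2.05 ± 0.16. Those that fell included the cholesterol exporters Abcg1 and Abca1. Abcg1 was at 2070 and 1556 in CD4 cells at 1 h and at 651.3 and 593.6 at 5 h, and at 1961 and 1920, then 491.7 and 453.8, in CD8 cells. The pairs did not overlap, and the changes were -1.53 ± 0.14 (adjusted p = 4.9e-07) and -2.04 ± 0.14 (adjusted p = 4.1e-08).

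Of the cell cycle lists, mitosis genes were mostly not called, and G1 genes had calls in both directions. The share of G1 genes called higher in the CD4 step was near that of all probe sets (24.6% higher, 10.7% lower). Their CD4 median was 0.06, beside 0.05 for all probe sets. For the CD8 step the G1 median was 0.08, beside 0.01, where 17.1% of all probe sets were higher and 10.1% lower. Of 18 tested genes of the G1 phase 5 rose and 1 fell in CD4 cells (5 and 4 after quantile normalization) and 5 rose and 4 fell in CD8 cells. Cdk4, a kinase that acts with D cyclins in the G1 phase, rose from 1229 and 1030 to 3806 and 3866 in CD4 cells and from 1636 and 1566 to 4158 and 4535 in CD8 cells. Its changes were 1.77 ± 0.11 (adjusted p = 1.7e-08) and 1.44 ± 0.11 (adjusted p = 1.6e-07). Of 24 DNA replication genes 6 rose and 1 fell in CD4 cells, 3 and 1 without CD4 1 h replicate 2 and 2 and 1 without both arrays that stood apart, and 4 rose and 1 fell in CD8 cells. With all arrays, the shares of DNA replication genes that rose were thus near those of all probe sets. Prim1, the primase subunit, reached 139.2 and 149.1 in CD4 cells at 5 h, where its mean at 24 h was 923. Of 19 mitosis genes none was called in CD8 cells (limma; at an unadjusted p under 0.05, 0 were higher and 1 lower). In CD4 cells Ccna2 and Plk1 were called higher. Ccna2 was at 64.2 and 146.1 in the 5 h arrays, the higher value in the array with signal of other cell types, and without that array its change of 0.81 was 0.22 (adjusted p = 0.44). Without CD4 1 h replicate 1 it was 0.63 (adjusted p = 0.15). For Plk1 the change of 0.50 was 0.35 without the same array (adjusted p = 0.21) and 0.53 and 0.47 without CD4 1 h replicates 1 and 2 (adjusted p = 0.055 and 0.11). At 24 h the mean of Ccna2 was 1827 in CD4 and 2485 in CD8 cells.

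Among the remaining lists, 5 antigen receptor and proximal signalling genes were higher and 3 lower of 24 in CD4 cells, shares near those of all probe sets. In CD8 cells 2 were higher and 4 lower, where 17.1% of all probe sets were higher and 10.1% lower. The CD4 split was 3 and 2 without CD4 1 h replicate 2 or without CD4 5 h replicate 2, and 3 and 5 after quantile normalization. Zap70, the kinase that docks on the receptor, rose from 547.5 and 401.3 to 1501 and 1520 in CD4 cells and from 603.7 and 505 to 1397 and 1512 in CD8 cells. Of 19 apoptosis regulators 5 rose and 2 fell in CD4 cells and 4 rose and 3 fell in CD8 cells. The CD4 shares of apoptosis regulators were also near those of all probe sets. Of the anti-apoptotic genes, Bcl2l1 rose by 2.04 ± 0.17 and 1.35 ± 0.17, and Bcl2 fell by 1.05 ± 0.16 and by 1.14 ± 0.16. Trafficking and adhesion genes divided into 7 higher and 5 lower of 18 in CD4 cells (6 and 7 after quantile normalization) and 4 higher and 9 lower in CD8 cells. Ccr8, a chemokine receptor of skin-homing T cells, rose from 325.8 and 282.5 to 1736 and 2406 in CD4 cells. Of 9 cytotoxic effector genes tested, of 15 listed, 3 rose and 1 fell in CD4 cells and 1 rose and 1 fell in CD8 cells. The CD8 shares of cytotoxic effectors were near those of all probe sets (17.1% higher and 10.1% lower). Leaving out CD4 1 h replicate 2 or CD4 5 h replicate 2 left 1 CD4 member called, as higher.

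The step differed between CD4 and CD8 cells at few genes. They included the cytokine and chemokine genes Il2, Xcl1, Ccl3 and Ccl4 and receptors such as Il2rb, Tnfrsf4, Crtam and Cd160, beside genes of other kinds such as Myc, Ehd1 and Slc16a1. The test of the difference called 42 of 14411 probe sets (0.291%), 13 (0.0902%) with the more positive change in CD8 cells and 29 (0.201%) with the more positive change in CD4 cells, and 1088 had an unadjusted p under 0.05. This count moves with single arrays, and so does its split. Leaving out CD4 1 h replicate 2 gave 18, leaving out CD4 5 h replicate 2 gave 22, and leaving out both gave 11 (6 more positive in CD8 cells and 5 in CD4 cells). Each CD8 1 h array left out gave 27 (replicate 1) or 20 (replicate 2). CD8 5 h replicate 2 left out gave 23, and CD4 1 h replicate 1 left out gave 218, of which 125 were more positive in CD8 cells and 93 in CD4 cells, the opposite majority.

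Chemokines gave the clearest differences. Ccl3 was at 208.1 and 266.3 in CD8 cells at 1 h and at 3608 and 3583 at 5 h, while in CD4 cells all 4 arrays lay between 73.8 and 87.1, within the background range. The steps differed by 3.75 ± 0.23 (adjusted p = 4.6e-07). In CD4 cells Ccl3 had a mean of 393 at 24 h. Ccl4 went from 123.1 and 117.1 to 542.5 and 578 in CD8 cells and stayed between 94.3 and 108.4 in CD4 cells, a difference of 2.28 ± 0.24 (adjusted p = 0.00017). For Xcl1 the difference was 3.94 ± 0.27 (adjusted p = 1.4e-06). Crtam, a receptor of activated cytotoxic and NK cells, rose from 140 and 153.7 to 1382 and 1245 in CD8 cells and from 66.7 and 54.4 to 121.3 and 112.7 in CD4 cells, a difference of 2.20 ± 0.20 (adjusted p = 4.2e-05). Cd160, a receptor of cytotoxic cells, rose from 89.2 and 93.3 to 561.4 and 833.6 in CD8 cells and was at 67.4 and 79.3 in CD4 cells at 5 h. Of 6 NK cell markers, Ncr1, Klrb1c, Klra8, Klre1 and Gzma lay between 10.9 and 43.7 in all 8 arrays. Eomes, which activated CD8 T cells also express, went from 144.6 and 201.4 to 459.6 and 639.4 in CD8 cells, and the list's sum was 289 and 329 at 1 h and 579 and 771 at 5 h. St8sia6, a sialyltransferase, ran at different levels: 1773, 1957, 1671 and 1485 in the CD4 arrays in order of time, and 102.9 and 114.2, then 259.9 and 318.8, in CD8 cells, with a difference of 1.65 ± 0.23 (adjusted p = 0.0026). Tnip3 and Cers6 differed by 1.74 ± 0.32 (adjusted p = 0.032) and 1.55 ± 0.25 (adjusted p = 0.01), and both calls depended on single arrays. Tnip3 lost its call without any of 6 single arrays, CD4 1 h replicate 2, CD4 5 h replicate 2 or any CD8 array (adjusted p from 0.058 to 0.19). Cers6 lost it without CD4 1 h replicate 2 (adjusted p = 0.075), CD8 1 h replicate 1 or CD8 5 h replicate 2 (adjusted p = 0.074 for each).

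**Figure D4:**
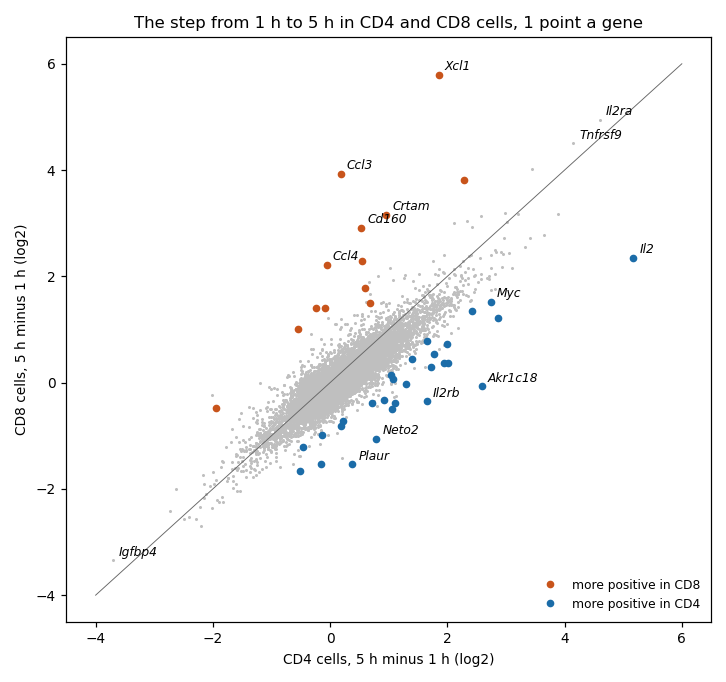
Log2 change from 1 h to 5 h in CD4 cells (x axis) and CD8 cells (y axis), 1 point per gene by its brightest probe set. The line marks equal changes, orange points were called with the more positive step in CD8 cells and blue points with the more positive step in CD4 cells, and grey points were not called for the difference; Xcl1 lies at 1.85 and 5.79 and Il2 at 5.17 and 2.35.

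Il2 was the largest difference in the other direction, -2.81 ± 0.53 (adjusted p = 0.034). It keeps that direction but loses the call without any of 5 single arrays, with adjusted p values of 0.16 for CD4 1 h replicate 2 left out, 0.21 for CD4 5 h replicate 2, 0.14 and 0.17 for the CD8 1 h arrays, and 0.1 for CD8 5 h replicate 1. With a trend and robust variances its adjusted p was 0.1. Akr1c18, a steroid dehydrogenase, was at 28 and 31.5 in CD4 cells at 1 h and at 123.2 and 261.2 at 5 h. In CD8 cells all 4 arrays lay between 24.6 and 26.8, within background, and the difference was -2.66 ± 0.32 (adjusted p = 0.00084). Tnfrsf4, the costimulatory receptor OX40, rose in CD4 cells from 531.7 and 374 to 1907 and 1545. In CD8 cells it was at 235.2 and 211.4, then 288.8 and 284.6, which is a difference of -1.58 ± 0.22 (adjusted p = 0.0034). Bhlhe40, a repressor that marks cytokine-producing T cells, rose in both, by 2.87 ± 0.17 in CD4 and 1.22 ± 0.17 in CD8 cells. Its 5 h arrays gave 639.7 and 812.5 (CD4) and 533.2 and 626.4 (CD8), whereas at 1 h they gave 105.9 and 91.7 and 229.1 and 268, so the smaller CD8 step goes with a higher start. The same holds for Ehd1, a recycling endosome protein, at 260.5 and 226.1 in CD4 and 1176 and 1170 in CD8 cells at 1 h, with a difference of -1.64 ± 0.18 (adjusted p = 0.00027). Il2rb differed by -1.99 ± 0.26 (adjusted p = 0.0015). Without both CD4 arrays that stood apart the differences of Il2rb, Bhlhe40 and St8sia6 were -1.81, -1.37 and 1.49 (adjusted p = 0.093, 0.24 and 0.14), and in the fit of all arrays of the series that of Bhlhe40 had an adjusted p of 0.59.

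Plaur and Neto2 peaked at 1 h in CD8 cells and not in CD4 cells. Plaur, the urokinase receptor, was at 766.8 and 778.4 in CD8 cells at 1 h and at 281.1 and 249.4 at 5 h, whereas CD4 cells gave 374.6 and 333.6, then 427.5 and 494.5. The difference was -1.92 ± 0.20 (adjusted p = 0.00017). The CD4 change of 0.38 ± 0.14 by itself (adjusted p = 0.049) lost its call under 9 alternatives, among them quantile normalization (0.11, adjusted p = 0.54) and each of the 4 CD4 arrays left out (adjusted p from 0.052 to 0.3). Neto2, an accessory protein of kainate receptors, was at 542.4 and 670.9, then 265.9 and 313.5, in CD8 cells and at 156.2 and 135.5, then 272.4 and 233.1, in CD4 cells. At 24 h the CD8 arrays of Neto2 were up again, at 377.2 and 549.3, so its 5 h level lies between 2 higher ones. Its difference of -1.86 ± 0.31 (adjusted p = 0.014) was lost without CD4 1 h replicate 2 (-1.75, adjusted p = 0.1), CD4 5 h replicate 1 (adjusted p = 0.059), CD8 1 h replicate 2 (adjusted p = 0.12) or CD8 5 h replicate 1 (adjusted p = 0.066).

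Promoter sequence was read for every list, and part of it is given here. RefSeq windows (build GRCm38.p6) of 250 bases before to 50 after the gene start were matched by symbol, for 9101 of the 11359 genes tested, and searched on both strands. The sequence CACGTG, the E-box bound by Myc and by USF factors, stood in 9 of 35 ribosome biogenesis windows (25.7%), 3 of 10 tRNA synthetase windows (30%), 3 of 16 glycolysis windows (18.8%) and 945 of the 9101 (10.4%). Other lists with many rises were mixed. Mitochondrial import and respiration held the E-box in 5 of 26 windows (19.2%) and chaperones in 4 of 21 (19%). Translation factors held it in 3 of 16 (18.8%) and sterol and fatty acid genes in 4 of 22 (18.2%). The share was lower in amino acid transport (1 of 7, 14.3%), serine, folate and nucleotide synthesis (3 of 23, 13%) and costimulatory, checkpoint and activation receptors (2 of 17, 11.8%). It was lowest in proteasome subunits (1 of 25, 4%) and cytokines and chemokines (0 of 16). Of cytosolic ribosomal protein windows 4 of 21 held it (19%). The interferon response core GAAANNGAA, added after the data were seen, stood in 11 of 20 interferon response windows (55%) and in 627 of 9101 (6.89%). It was also in 6 of 17 windows of costimulatory, checkpoint and activation receptors (35.3%), a list with more rises than falls. Cytosolic ribosomal proteins, of which 1 gene was called in each cell type, held it in 6 of 21 windows (28.6%). Cytotoxic effectors held it in 2 of 7 (28.6%) and immediate early factors in 3 of 14 (21.4%). The amino acid response element TGATGNAAT stood in 2 of 10 tRNA synthetase windows (20%) and 32 of 9101 (0.352%), and the AP-1 site TGANTCA in 7 of 20 interferon response windows (35%) and 418 of 9101 (4.59%). A match is a run of letters and not a measured binding site.

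Stretches of 250 bases before the start are shown for 4 genes, Ifih1 and Cdk4, described above, and Slc16a1 and Iars, whose values follow the sequences, to show where the letters lie in a gene that fell and in genes that rose; they were picked after the matches were seen. Capitals mark the interferon response core in Ifih1 (read on the other strand, with a second match after the start that is not shown) and the E-box in the rest. The match begins 112 bases before the start in Ifih1, 172, 118, 98 and 11 in Cdk4, 200 in Slc16a1, the lactate carrier, and 69 in Iars, the isoleucyl tRNA synthetase.
Ifih1, chr2:62646256-62646505, minus strand: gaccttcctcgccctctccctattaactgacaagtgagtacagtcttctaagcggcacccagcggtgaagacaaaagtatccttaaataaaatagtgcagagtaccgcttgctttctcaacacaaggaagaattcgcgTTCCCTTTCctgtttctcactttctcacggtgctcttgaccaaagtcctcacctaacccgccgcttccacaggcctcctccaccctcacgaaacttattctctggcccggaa
Cdk4, chr10:127063285-127063534, plus strand: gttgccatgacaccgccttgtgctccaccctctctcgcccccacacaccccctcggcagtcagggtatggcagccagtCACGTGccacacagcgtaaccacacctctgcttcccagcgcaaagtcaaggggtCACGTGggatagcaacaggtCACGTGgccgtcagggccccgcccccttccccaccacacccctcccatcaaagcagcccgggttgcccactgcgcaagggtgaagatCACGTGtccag
Slc16a1, chr3:104638414-104638663, plus strand: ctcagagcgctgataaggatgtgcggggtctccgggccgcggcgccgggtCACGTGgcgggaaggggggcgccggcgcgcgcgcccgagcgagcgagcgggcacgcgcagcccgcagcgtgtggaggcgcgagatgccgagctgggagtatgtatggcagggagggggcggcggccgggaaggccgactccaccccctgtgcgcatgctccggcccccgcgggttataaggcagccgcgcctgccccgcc
Iars, chr13:49681880-49682129, plus strand: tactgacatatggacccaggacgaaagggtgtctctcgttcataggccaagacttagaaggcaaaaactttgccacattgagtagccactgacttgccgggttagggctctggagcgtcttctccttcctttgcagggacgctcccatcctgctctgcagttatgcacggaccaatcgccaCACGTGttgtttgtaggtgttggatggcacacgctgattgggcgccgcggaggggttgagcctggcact

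Slc16a1 rose from 420.1 and 381.3 to 1644 and 1548 in CD4 cells, by 2.00 ± 0.15 (adjusted p = 6.9e-08), and from 762.1 and 856.1 to 1543 and 1157 in CD8 cells, by 0.73 ± 0.15 (adjusted p = 0.0014), and these steps differed (adjusted p = 0.011). Iars rose from 1265 and 1432 to 2856 and 3398 in CD4 cells, and from 1455 and 1694 to 3225 and 5124 in CD8 cells, with changes of 1.21 ± 0.26 (adjusted p = 0.0019) and 1.37 ± 0.26 (adjusted p = 0.00094). The CD4 value of Iars without both arrays that stood apart was 1.17 (adjusted p = 0.055).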

How the data were processed

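Expression was measured from total RNA on Affymetrix arrays. The deposited values are linear intensities summarised with RMA in Affymetrix Power Tools, per the submitters' processing notes, without stated versions, and array summaries of this kind carry no read depth. The members and gene lists were chosen with earlier results of these data known, and the interferon response core was added after the matches of other motifs were seen.

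The log2 intensities of the 22 CD4 and CD8 time course arrays were fitted as 12 groups with limma 3.58.1 (lmFit and eBayes, R 4.3.3), leaving 10 residual degrees of freedom. A probe set was kept if at least 1 group averaged the overall median (intensity 121) or more, as 14411 of 24922 did, and p-values were Benjamini-Hochberg adjusted over them, with 0.05 as threshold. The median standard error of a step was 0.156 on the log2 scale, and the 2 arrays per group of the step limit the precision. Of all probe sets 21425 had 1 gene symbol, 1399 several and 2098 none. A gene is given by its brightest probe set. Genes were named by rule: the 10 largest called rises and falls per cell type whose arrays did not overlap (predicted genes, small RNAs, numbered models and antigen receptor or immunoglobulin segments left out), the 8 most positive and 8 most negative called differences, and in each list the 4 called members with the largest mean absolute change plus up to 3 called against its majority direction. Alternatives were filters, normalization, an offset of 32, other sets of arrays and variances, a replicate block and single arrays left out. The script was tested on simulated data.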

Additional observations from a re-analysis of the deposited data

Results flagged for a closer look

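For 16 named genes the step differed between CD4 and CD8 cells by limma's test of the difference. The CD8 change exceeded the CD4 change by 3.94 for Xcl1, 3.75 for Ccl3, 2.38 for Cd160, 2.28 for Ccl4, 2.20 for Crtam, 1.74 for Tnip3, 1.65 for St8sia6 and 1.55 for Cers6, on the log2 scale. The CD8 minus CD4 difference was -2.81 for Il2, -2.66 for Akr1c18, -1.99 for Il2rb, -1.92 for Plaur, -1.86 for Neto2, -1.65 for Bhlhe40, -1.64 for Ehd1 and -1.58 for Tnfrsf4.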

How the results depend on the processing

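Sign changes of named genes that were called in neither fit were not counted, and no other change of a named gene reversed under the alternatives run. The split of the difference calls did: 13 higher and 29 lower in CD8 cells became 125 and 93 without CD4 1 h replicate 1 and 6 and 5 without both arrays that stood apart. The CD4 step gave 3367 to 4610 calls with 1 array left out and 2363 without both arrays that stood apart, an alternative chosen after seeing the data. The CD8 step gave 2637 to 3417 with 1 array left out. The difference of the steps gave 25 calls when only the 8 arrays were fitted, 18 to 218 with 1 array left out and 11 without both arrays that stood apart. The 18 calls made without CD4 1 h replicate 2 were all among the 42, and the 218 made without replicate 1 held all 42. The cause was not tested. Of the calls of named genes, 23 of 147 in CD4 cells, 14 of 142 in CD8 cells and 7 of 16 for the difference were lost under at least 1 alternative. Replicate numbers are shared by title only: the deviations of same-numbered arrays correlated at -0.106 between CD4 1 h and CD4 5 h and at 0.118 to 0.345 otherwise. With the replicate block 5662, 4430 and 55 probe sets were called, all 5079, 3924 and 42 among them. With the CD4 1 h numbers crossed, also chosen after seeing the data, the block gave 5549 and 50. Genes near background have folds limited by the floor of the array.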
